A study of Mus musculus with 16 samples.

Results

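Hes and Hey genes encode basic helix-loop-helix repressors that Notch signaling switches on, and the data were examined for whether other members of the family were higher in mouse kidneys from which Hes1 had been deleted. The 6 genes are Hes1, Hes5, Hes6, Hey1, Hey2 and Heyl, taken by symbol from a count table of 28971 genes. All 6 had at least 1 read, and 5 passed the filter on low counts, with Hes5 the exception. RNA came from whole kidneys of Hes1 cKO (conditional knockout) mice, which carry Pax8-rtTA, a TRE-driven Cre and Hes1 f/f, and of control littermates that the labels call wild type. All mice, controls included, drank doxycycline at 1 mg/mL with 5% sucrose for 1 week from 3 weeks of age. Whether the controls carry any of the transgenes is not stated. Pax8 is active in tubule epithelium, so the doxycycline-dependent activator is made there, and cells of vessels, interstitium and blood are outside its reach. By their names, 3 columns of the table are mutant libraries and 4 are wild-type ones; the titles list 7 Hes1 cKO and 9 control kidneys, and the series text gives those 2 sizes the other way round. The columns carry no sex and no replicate number of a titled sample, so the numbers below (Hes1 cKO 1 to 3, control 1 to 4) are only names. Since no source ties a column to one animal, p-values measure the spread between these libraries.

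When a Delta-like or Jagged ligand binds a Notch receptor, the receptor's intracellular part is released, enters the nucleus and joins the DNA-binding protein RBPJ and a Mastermind-like coactivator. Hes1, Hes5, Hey1, Hey2 and Heyl are the best known genes this complex turns on, and their proteins repress transcription, the Hes proteins by recruiting Groucho (Tle) co-repressors. Hes6 differs: its protein inhibits Hes1 and it is often expressed without Notch input. In the collecting duct Notch signaling favours the principal cell, which reabsorbs sodium and water, over the intercalated cell, which secretes acid or base.

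Total counts were 16973931 to 20420422 per library, and 15615 genes passed the filter. RNA of adrenal tissue was present unevenly in both groups: the summed level of 11 adrenal genes, all tested, was 959 CPM (a gene's reads scaled to a common library total) in Hes1 cKO 3, 751 in control 1 and 188 in control 2, and 2.82 to 43.0 CPM in the other 4 libraries. With the mean log2(CPM + 1) of these 11 genes as a covariate Hes1 stayed called (log2 fold change -1.58) and the other tested members stayed uncalled. Of the kidney markers, 9 of 10 principal cell genes and all 14 intercalated cell genes passed the filter.

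Promoter sequences are shown first because 2 members that Notch is known to activate carry the letters that RBPJ binds, and 1 of the 2 windows of the called ligand gene Dll1 carries letters that Hes proteins bind. RefSeq entries (GRCm38.p6, 300 bases each, most of it upstream of the start) were found for 3 of the 6 members, Hes5, Hes6 and Hey2; Hes1, Hey1 and Heyl had none. The windows are Hes5 at chr4:154960673-154960972 (+ strand), Hey2 at chr10:30842734-30843033 (- strand), one of the 2 Hes6 windows at chr1:91413173-91413472 (- strand) and one of the 2 Dll1 windows at chr17:15376883-15377182 (- strand). Capitals mark any match on either strand to GTGGGAA (RBPJ core), CACNAG (Hes N-box) or CACGCG (class C site of Hes proteins).
Hes5: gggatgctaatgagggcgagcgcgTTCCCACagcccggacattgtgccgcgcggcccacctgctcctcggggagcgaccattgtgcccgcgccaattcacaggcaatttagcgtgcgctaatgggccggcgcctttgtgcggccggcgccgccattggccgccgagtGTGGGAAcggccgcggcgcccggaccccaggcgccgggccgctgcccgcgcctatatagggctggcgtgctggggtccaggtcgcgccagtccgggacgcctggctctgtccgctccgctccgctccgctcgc
Hey2: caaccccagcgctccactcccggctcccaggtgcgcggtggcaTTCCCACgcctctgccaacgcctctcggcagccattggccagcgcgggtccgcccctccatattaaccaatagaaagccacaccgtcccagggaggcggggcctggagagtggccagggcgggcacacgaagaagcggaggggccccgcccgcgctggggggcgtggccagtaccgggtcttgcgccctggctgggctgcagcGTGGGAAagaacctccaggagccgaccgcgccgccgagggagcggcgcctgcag
Hes6: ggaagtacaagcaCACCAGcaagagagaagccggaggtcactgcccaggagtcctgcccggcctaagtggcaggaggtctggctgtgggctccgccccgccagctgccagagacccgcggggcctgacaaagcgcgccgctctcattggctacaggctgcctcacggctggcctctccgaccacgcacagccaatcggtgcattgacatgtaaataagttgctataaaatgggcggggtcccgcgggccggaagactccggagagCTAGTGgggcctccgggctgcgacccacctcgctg
Dll1: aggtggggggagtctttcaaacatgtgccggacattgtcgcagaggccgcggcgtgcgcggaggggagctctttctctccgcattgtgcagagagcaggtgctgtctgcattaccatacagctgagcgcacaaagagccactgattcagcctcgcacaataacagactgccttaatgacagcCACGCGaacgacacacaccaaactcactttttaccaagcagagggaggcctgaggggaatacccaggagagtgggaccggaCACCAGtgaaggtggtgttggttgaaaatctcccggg
The Hes5 window held GTGGGAA at 2 positions, 25 and 168 of 300 counted from its 5′ end, the first on the opposite strand. The Hey2 window also held it at 2 positions, 44 and 247, again the first on the opposite strand. Neither Hes6 window held it. Of 32851 windows of this length, 6.38% had at least 1 match. The Hes6 window shown had CACNAG at 2 positions, and the Dll1 window had CACNAG and CACGCG at 1 position each. The other Hes6 window and the other Dll1 window, not shown, had 0 matches to any of these motifs. The window of Jag1, the other called ligand gene, had CACGCG at 2 positions. CACNAG occurred in 42.5% and CACGCG in 9.27% of all windows. CACGTG, also searched, was in none of the windows shown and in 7.15% of all windows. These motifs do not overlap one another in the windows shown, and a match is a run of letters, not a measured binding site.

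Hes1 itself fell, to 32.6% of its control level. Hes1 (ENSMUSG00000022528, chromosome 16, 30064384 to 30067796, GRCm38, GENCODE M21) was at 19.8, 17.2 and 17.5 CPM in the Hes1 cKO libraries. In control libraries 1 to 4 it was at 42.8, 51.0, 67.6 and 60.9 CPM. The groups did not overlap. The SD was 1.43 CPM at a mean of 18.1 CPM in Hes1 cKO and 10.9 CPM at a mean of 55.6 CPM in control. Single Hes1 cKO libraries lay at 30.9% to 35.6% of the control mean. The log2 fold change was -1.61 (95% interval -1.97 to -1.26, n = 3 and 4), and edgeR's quasi-likelihood test gave an adjusted p of 0.00357 (Benjamini-Hochberg). Across all tested genes 0.0192% were called lower and 0.339% were called in either direction. Groups without overlap were seen for 3.29% of tested genes in the lower direction and for 7.01% in either.

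The sources used here do not say which part of Hes1 Cre removes, so reads from exons that remain and reads from cells without Cre cannot be told apart. In bulk RNA, fewer cells of a type and less RNA per cell cannot be told apart either. This matters beside Hes1 because collecting duct markers moved with it. The summed level of the 9 tested principal cell genes was 987 to 1606 CPM in Hes1 cKO and 1535 to 2312 CPM in control. By edgeR and limma-voom 1 gene was called lower and by DESeq2 5, where 3, 3 and 32 of all 15615 tested genes were. All 9 had a negative log2 fold change (median -0.53, against -0.0064 over all tested genes). At an unadjusted p under 0.05 by edgeR 6 were lower, where 408 of all tested genes were. The 14 intercalated cell genes summed to 2077 to 2244 CPM in Hes1 cKO against 1021 to 1178 CPM in control. Of these, 10 were called higher by edgeR, where 0.32% of all tested genes were. Their part in the fall of Hes1 was not tested.

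**Figure D1:**
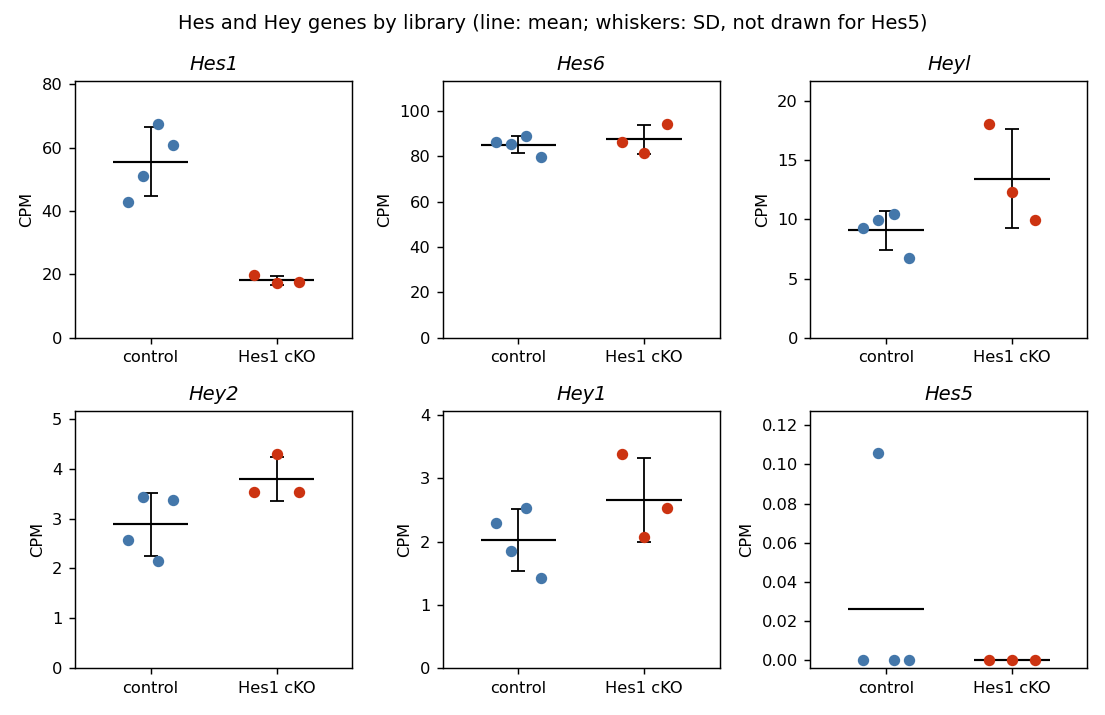
Level of each gene in CPM (vertical axis) in 4 control libraries (blue) and 3 Hes1 cKO libraries (red), with the mean as a line and the SD as whiskers except for Hes5. The red Hes1 points lie at 17.2 to 19.8 CPM, below every control, while the groups of Hes6, Heyl and Hey1 overlap.

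None of the 4 other tested members was called. By edgeR's quasi-likelihood test 0 of 4 passed an adjusted p of 0.05, and DESeq2 and limma-voom also called 0. At an unadjusted p under 0.05 there was 1, Heyl, where 5.95% of all tested genes passed and 3.34% passed in the higher direction. All 4 had a positive log2 fold change, as did 48.4% of all tested genes, and their sizes differed: Heyl 0.56, Hey1 0.40, Hey2 0.39 and Hes6 0.04.

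Hes6 (ENSMUSG00000067071, chromosome 1, 91411483 to 91414038), the inhibitor of Hes1, was the member measured most precisely. It was at 86.4, 81.5 and 94.3 CPM in Hes1 cKO, while the controls had 86.2, 85.5, 88.9 and 79.9 CPM. The highest and the second lowest of the 7 libraries were Hes1 cKO, so the groups overlapped, with Hes1 cKO 3 above every control. The log2 fold change of 0.04 had a 95% interval of -0.14 to 0.22, which as a fold spans 0.904 to 1.17 (edgeR adjusted p 0.988). A change in Hes6 RNA of more than 1.17-fold upward thus lies outside the interval, and without Hes1 cKO 3 the log2 fold change was -0.02. It had 1463 to 1648 reads in a library.

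Heyl (ENSMUSG00000032744, chromosome 4, 123233556 to 123249875), a Notch target known from smooth muscle and pericytes of vessels, had the largest difference of the 4. It was at 18.1, 12.3 and 9.94 CPM in Hes1 cKO, while the controls had 9.29, 9.96, 10.4 and 6.71 CPM. Only Hes1 cKO 1 and 2 lay above all controls, and Hes1 cKO 3 lay among them. The log2 fold change was 0.56 (95% interval 0.07 to 1.06), with an unadjusted p of 0.0296 and an adjusted p of 0.744 by edgeR. The exact two-sided permutation test gave p = 0.0857, where 3 against 4 libraries can reach 0.0286 at best. The size rested on Hes1 cKO 1: without it the log2 fold change was 0.29.

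Hey2 (ENSMUSG00000019789, chromosome 10, 30832359 to 30842801), a Notch target of arterial endothelium and heart, was low. It was at 3.54, 4.30 and 3.53 CPM in Hes1 cKO, from 60 to 87 reads, while the controls had 2.58, 3.44, 2.14 and 3.38 CPM, from 39 to 65 reads. The groups did not overlap, but only just, since the lowest Hes1 cKO library was at 3.53 and the highest control at 3.44 CPM. Of all tested genes, 3.71% were likewise higher without overlap. The log2 fold change was 0.39 (95% interval -0.12 to 0.90), not called (edgeR adjusted p 0.934; exact two-sided permutation p = 0.143).

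Hey1 (ENSMUSG00000040289, chromosome 3, 8663359 to 8667256), the related target found in endothelium and other tissues, was also low. It was at 3.39, 2.08 and 2.53 CPM in Hes1 cKO, from 42 to 64 reads, while the controls had 2.29, 1.85, 2.52 and 1.42 CPM, from 26 to 46 reads. Hes1 cKO 1 stood above all other libraries and Hes1 cKO 2 lay among the controls. The log2 fold change of 0.40 (95% interval -0.22 to 1.01, edgeR adjusted p 0.942) dropped to 0.18 without Hes1 cKO 1 and to 0.26 without control 4. A change in Hey1 of up to 2.02-fold upward, or of 1.87-fold in Hey2, lies within the interval.

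Hes5 (ENSMUSG00000048001, chromosome 4, 154960923 to 154962371), a classical Notch target in the nervous system, was close to undetected. It had 0 reads in each of the 3 Hes1 cKO libraries and 2 reads in all 4 controls, both in control 2 (0.106 CPM). With 0 reads in 55855742 counts, 3 reads over the Hes1 cKO group, or 0.0534 CPM, is the limit that a count of 0 allows. No gain of Hes5 above that limit was detectable in Hes1 cKO.

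Other genes of the Hes-related family gave no call either. Of the 6 listed, 5 were in the table and 3 were tested, with 0 called by edgeR, DESeq2 or limma-voom and 0 at an unadjusted p under 0.05. Hes2 had 7 to 21 reads in a library and a log2 fold change of -0.46 (95% interval -1.31 to 0.40). Hes7, known from the clock of the forming vertebrae, had 10 reads over the Hes1 cKO group and 13 over control, and Hes3 had 1 read in each group. The related repressor genes Bhlhe40 and Bhlhe41, which act in the circadian clock, had log2 fold changes of -0.10 and 0.11.

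Comparing levels between genes needs their length, so CPM was divided by the length of the merged exons in kb (GENCODE M21). In control the order was Hes6 at 47.1 ± 2.09, Hes1 at 27.3 ± 5.35, Heyl at 1.78 ± 0.324, Hey2 at 0.629 ± 0.138, Hey1 at 0.620 ± 0.150 and Hes5 at 0.0194 CPM per kb (SD, n = 4). By merged exon length, only Hey2 and Hey1 were neighbours that did not differ beyond their spread. In Hes1 cKO the order began with Hes6 at 48.3 ± 3.57, Hes1 at 8.90 ± 0.704 and Heyl at 2.63 ± 0.820 CPM per kb (SD, n = 3), followed by Hey2 at 0.826 ± 0.0963 and Hey1 at 0.816 ± 0.204 CPM per kb. Hes1 was thus second in both groups. The levels depend on the length chosen. With the longest transcript Hes1 was at 37.8, Hes6 at 54.1, Hey2 at 1.13 and Hey1 at 0.835 CPM per kb in control.

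**Figure D2:**
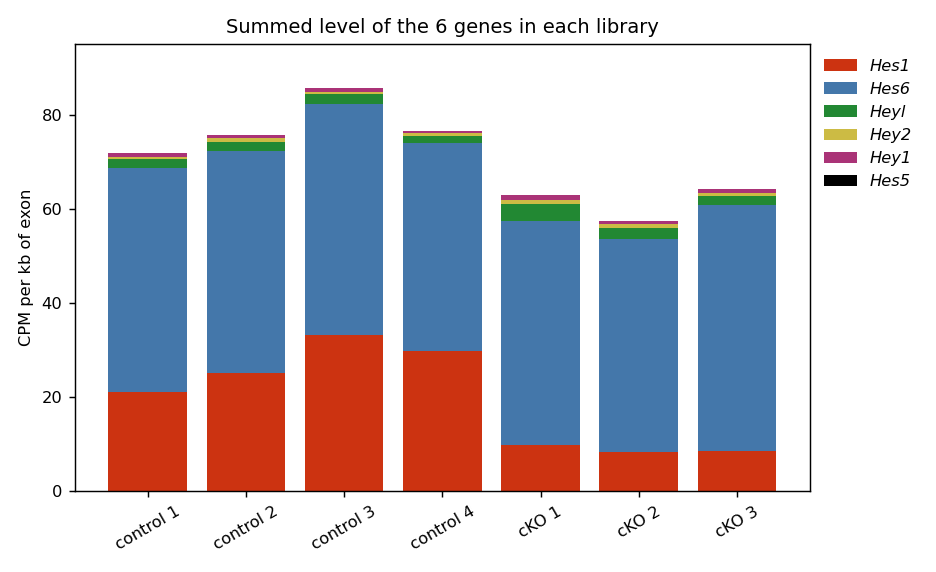
Stacked level of the 6 genes in CPM per kb of exon (vertical axis) in each library. The red Hes1 segment shrinks from 21.0 to 33.2 in control to 8.42 to 9.71 in Hes1 cKO, while the blue Hes6 segment stays between 44.2 and 52.1.

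The summed level of the family was lower in Hes1 cKO. All 6 genes together were at 62.8, 57.5 and 64.2 CPM per kb in Hes1 cKO, while the controls had 71.7, 75.6, 85.6 and 76.5 CPM per kb, with no overlap. Hes1 made up 29.3% to 39.0% of this sum in control and 13.4% to 15.5% in Hes1 cKO. The 5 other members summed to 53.1, 49.1 and 55.6 CPM per kb in Hes1 cKO and to 50.7, 50.6, 52.4 and 46.7 CPM per kb in the controls. These overlapped. Their means differed by 2.50 CPM per kb, less than the SD of 3.32 within Hes1 cKO, while Hes1 fell by 18.4 CPM per kb. Hes6 made up most of this sum. Without Hes6, the 4 remaining members summed to 5.35, 3.98 and 3.49 CPM per kb in Hes1 cKO and to 3.08, 3.34, 3.28 and 2.48 CPM per kb in the controls, a split made after the values were seen. These did not overlap, and the means, 4.27 ± 0.964 (SD, n = 3) and 3.05 ± 0.391 (SD, n = 4), differed by 1.40-fold. The sum is highest in Hes1 cKO 1, the library highest for Heyl and Hey1. With Hes6 included, the difference came to 13.6% of the Hes1 drop. Of this, Hes6, whose protein inhibits Hes1, gave 6.93%, Heyl 4.63%, Hey2 1.07% and Hey1 1.07%. By reads alone, without division by length, the share was 21.8%. Leaving out single libraries gave 5.40% (without Hes1 cKO 3) to 23.6% (without Hes1 cKO 2).

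The intervals of the single genes bound how much each could add. At the upper end of its 95% interval Hes6 would add 42.5% of the Hes1 drop, Heyl 10.5%, Hey1 3.44% and Hey2 2.97%, in CPM per kb. All 4 at their upper ends at once would add 59.5%, most of it from Hes6, whose protein inhibits Hes1. These sums add RNA levels and do not say whether one protein could stand in for another. These shares describe RNA of the whole kidney. RNA within principal or intercalated cells was not measured apart.

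Because Heyl, Hey1 and Hey2 are known from vessels, vascular markers were read beside them. Of 9 smooth muscle and pericyte genes 8 were tested, and 0 were called by edgeR, DESeq2 or limma-voom or passed an unadjusted p of 0.05. Their summed level was 294 to 538 CPM in Hes1 cKO and 305 to 479 CPM in control. Hes1 cKO 1, highest for Heyl and Hey1, was also highest for this sum and for Myh11 (93.3 CPM) and Acta2 (74.9 CPM), genes of contractile smooth muscle. Of the tested genes of this list, only Rgs5 (Hes1 cKO 2, 54.5 CPM) and Ren1 (control 3, 216 CPM) were highest elsewhere. This was not particular to smooth muscle. Hes1 cKO 1 was also highest for the summed endothelial (518 CPM), arterial endothelial (102 CPM) and stroma genes (575 CPM). Hes1 cKO 2, second highest for Heyl and highest for Hey2, had the lowest smooth muscle and pericyte sum. With the list's mean level as a covariate the log2 fold change of Heyl was 0.48, that of Hey1 0.30 and that of Hey2 0.45, none called; without it they were 0.56, 0.40 and 0.39. The 10 endothelial genes, all tested, summed to 356 to 518 CPM in Hes1 cKO and 411 to 480 CPM in control. Of these, 0 were called by any of the 3 tests. At an unadjusted p under 0.05 there was 1, Emcn, which was lower (log2 fold change -0.47). The 5 arterial endothelial genes, all tested, summed to 79.0 to 102 CPM in Hes1 cKO and 77.3 to 95.2 CPM in control. Again 0 were called by any of the 3 tests. Here 1, Efnb2, passed an unadjusted p of 0.05 and was higher (log2 fold change 0.25). Of all tested genes, 5.95% passed in either direction. The part of these cell types in the Hey values was not tested further.

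**Figure D3:**
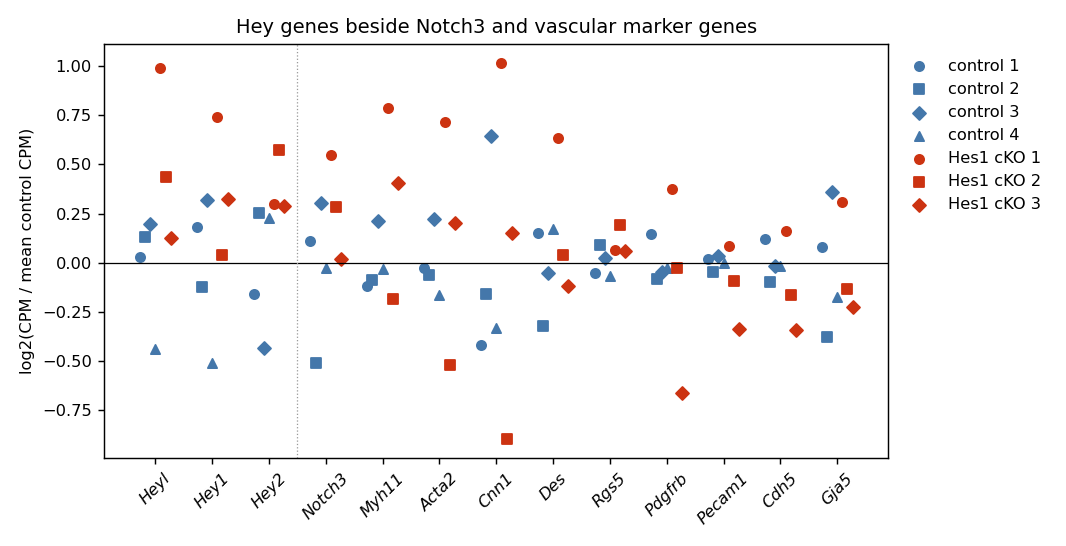
Level of each gene relative to its control mean, as log2 of the ratio (vertical axis), in control (blue) and Hes1 cKO (red) libraries, with a marker shape for each library. Hes1 cKO 1 (red circles) is at 0.99 for Heyl, 0.79 for Myh11 and 0.72 for Acta2. Hes1 cKO 2 (red squares) is at 0.44 for Heyl, -0.18 for Myh11 and -0.52 for Acta2. Its smooth muscle and pericyte markers drawn here run from -0.90 (Cnn1) to 0.19 (Rgs5).

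Upstream of the family, 2 of the 4 tested ligand genes rose and no receptor was called. Dll1, a Delta-like ligand, was at 29.4, 23.1 and 26.8 CPM in Hes1 cKO, while the controls had 11.8, 9.58, 11.8 and 12.1 CPM (log2 fold change 1.22, edgeR adjusted p 0.00357). Jag1 rose by 0.64 on the log2 scale (edgeR adjusted p 0.0332), and this call was lost on leaving out any single library but Hes1 cKO 3 (largest edgeR adjusted p 0.201, for Hes1 cKO 2) and with the smooth muscle covariate (0.0717). Across all tested genes 0.32% were called higher. Dll4 and Jag2 had log2 fold changes of 0.42 and 0.17 and were not called. For the ligands too, more cells of a type and more RNA per cell cannot be told apart in bulk RNA. The intercalated cell genes summed to 2077 to 2244 CPM in Hes1 cKO and 1021 to 1178 CPM in control. The part of these cells in the ligand values was not tested.

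Of the 4 receptor genes, all tested, 0 were called by edgeR, DESeq2 or limma-voom and 1, Notch1, passed an unadjusted p of 0.05. Notch1 was at 46.7, 43.4 and 28.2 CPM in Hes1 cKO, while the controls had 30.4, 22.8, 29.8 and 27.8 CPM. As with Heyl, Hes1 cKO 1 and 2 were above the controls and Hes1 cKO 3 was among them (log2 fold change 0.51, edgeR adjusted p 0.693). Notch2, the receptor with the most reads, had a log2 fold change of 0.01 (95% interval -0.20 to 0.21). The DNA-binding partner Rbpj ranged from 18.7 to 34.0 CPM in Hes1 cKO and from 19.2 to 34.7 CPM in control, with a log2 fold change of 0.05. Of the 4 genes of the nuclear complex and the 16 for processing and modification, all tested, 0 were called by any of the 3 tests, with 0 and 1 at an unadjusted p under 0.05.

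Notch targets outside the family likewise gave no call. Of 6 tested, 0 were called by edgeR, DESeq2 or limma-voom and 0 passed an unadjusted p of 0.05, with a median log2 fold change of 0.14 against -0.0064 over all tested genes. Nrarp, a feedback inhibitor of Notch, was at 3.76, 2.08 and 1.53 CPM in Hes1 cKO, while the controls had 2.75, 2.54, 4.23 and 1.58 CPM. The values overlapped throughout (log2 fold change -0.17, 95% interval -1.04 to 0.70). The collecting duct gene Elf5 had a log2 fold change of 0.31 (95% interval -0.27 to 0.89).

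**Figure D4:**
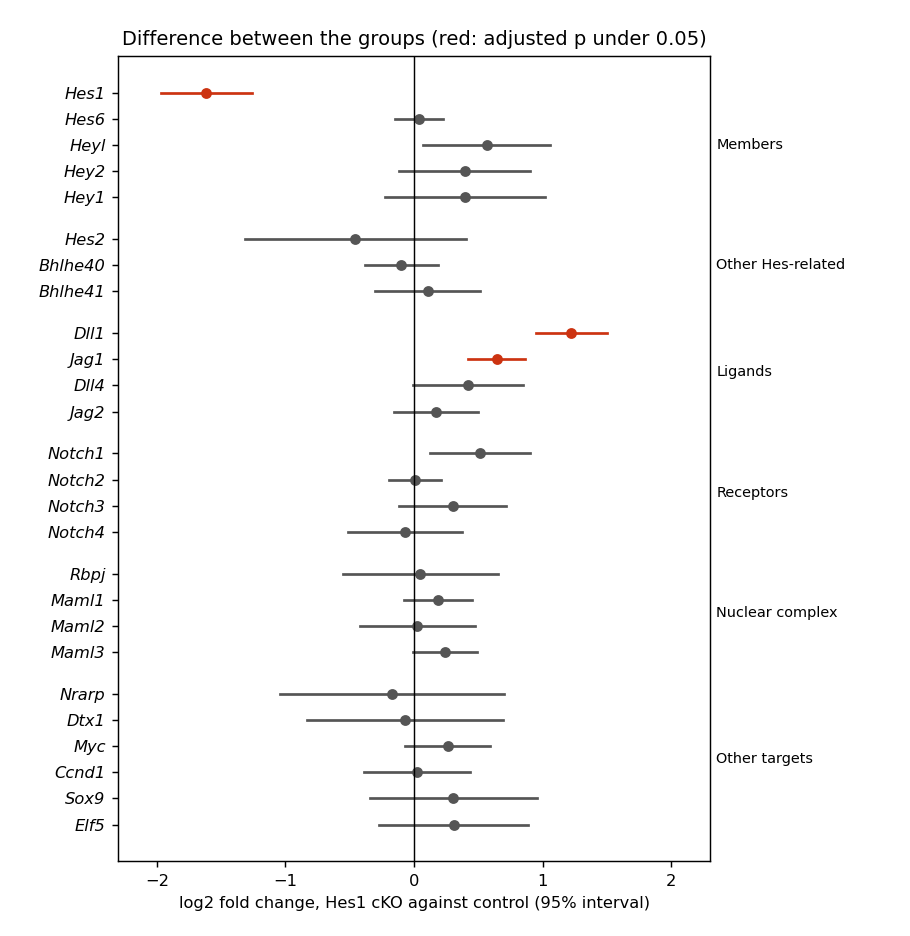
Log2 fold change of Hes1 cKO against control (horizontal axis) with its 95% interval for the 5 tested members and for listed Notch pathway genes, in red where the adjusted p was under 0.05. Hes1 lies at -1.61, Dll1 at 1.22 and Jag1 at 0.64, and the intervals of the other genes are drawn in grey.

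Genes for co-repressors and partners of Hes and Hey proteins were examined last. Of 16 listed symbols, 15 were in the table, and all 15 were tested. By edgeR, DESeq2 or limma-voom 0 were called, with 2 at an unadjusted p under 0.05 and a median log2 fold change of 0.04. Aes, a shortened Groucho relative and the most counted of the Groucho family, was at 595 ± 35.7 CPM (SD, n = 3) and 596 ± 48.3 CPM (SD, n = 4). Tle1 to Tle4, the full-length Groucho genes, had log2 fold changes of 0.23, -0.07, 0.08 and 0.02. Sirt1, a deacetylase known to bind Hes1 and Hey2 and named after its values were seen, had a log2 fold change of 0.30 (95% interval 0.02 to 0.57, edgeR adjusted p 0.789).

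Genes that Hes1 is known to repress in other tissues were listed as well. Of the 10, 8 were in the table, 5 were tested and 1, Dll1 again, was called higher. Here as well, more cells of a type and more RNA per cell cannot be told apart. All 5 had a positive log2 fold change, with a median of 0.26, where 48.4% of all tested genes were positive and their median was -0.0064. The share of all tested genes called higher was 0.32%. The cell cycle inhibitor Cdkn1a, named after its value was seen, was at 17.9, 15.1 and 12.9 CPM in Hes1 cKO. The controls had 7.23, 12.1, 11.7 and 8.57 CPM. The groups did not overlap, where 3.71% of all tested genes were likewise higher without overlap. Cdkn1a was not called (log2 fold change 0.62, edgeR adjusted p 0.622). Cdkn1b had a log2 fold change of 0.07. Foxi1, the transcription factor that intercalated cells need, is not on this list. It is among the 14 intercalated cell genes, of which 10 were called higher. Foxi1 rose by 1.87 on the log2 scale (edgeR adjusted p 6.34e-04). Its RefSeq window held the RBPJ core at 1 position, where 6.38% of all windows had at least 1 match. The same window had 0 matches to the Hes N-box, the class C site and the other motif searched. Whether Hes1 or Notch acts on Foxi1 was not tested.

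Profiles over the 7 libraries were compared by the root mean square difference of centred log2 CPM among 14143 genes with a mean of at least 1 CPM. The 5 genes closest to Hes1, whose own profile had a root mean square of 0.81, were Hsd11b2 (0.26), Ache (0.33), Gm48135 (0.37), Kcne1 (0.43) and Lrriq3 (0.45). Hsd11b2, an enzyme that inactivates glucocorticoids, was at 111, 92.2 and 114 CPM in Hes1 cKO, while the controls had 195, 206, 278 and 241 CPM, and among the controls it was lowest in control 1 and highest in control 3, as Hes1 was. Hsd11b2 and Kcne1 are also on the list of principal cell markers. Heyl was closest to Adamtsl5 (0.09), Bmp2 (0.17) and Sox9 (0.18). Hey1 was closest to Fer1l4, Spock2 and 6820408C15Rik (0.10 to 0.14), and Hey2 to RP23-70F22.2, Zfp773 and Naa16 (0.10 to 0.13). Hes6 varied so little (0.07) that its nearest genes, Med10, Mrps34 and Prkaca, are simply genes that also varied little.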

How the data were processed

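Total RNA of whole kidneys was read as 150 bp pairs, per the labels' protocols. The authors deposited whole-number counts per gene with no normalization. The submitters' processing notes name FastQC, STAR, DESeq2 and the builds mm10 and GRCm38; no source used here gives the counting program, its strand setting or the annotation, so overlapping genes cannot be told apart. The 9 columns of a second table show no genotype and were not used. Nothing says how the libraries of a group relate beyond being separate kidneys, and pairs within a group differed far beyond counting noise (chi-square per degree of freedom 11.8 to 41.0).

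Genes were kept by filterByExpr (minimum count 10), scaled by TMM and tested by edgeR 4.0.16 (quasi-likelihood, R 4.3.3), with Benjamini-Hochberg adjustment over all tested genes. A call is an adjusted p under 0.05. Intervals (95%) come from the F statistic. CPM uses TMM library sizes. DESeq2 1.42.0 and limma-voom 3.58.1 were alternatives. Permutation tests were exact, on log2(CPM + 1). The code was tested on simulated data. Counting limits (3 reads for a count of 0) cover counting error only. Members and lists were chosen with earlier results of these data known. Named genes are the 6 members, called genes of the pathway lists, Notch1, Notch2, Rbpj, Nrarp, Dll1, Jag1, Foxi1, Hes2, Hes3 and Hes7, and the nearest profiles; other listed genes given by name were picked after their values were seen. Some results for listed genes are not reported here.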

Additional observations from a re-analysis of the deposited data

Results flagged for a closer look

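Among 19 genes read over the 4 controls, 2 had a library far from the other 3 by Dixon's ratio, and chance alone gives about 1 in 20. Hes5 was at 0.106 CPM in control 2, from 2 reads, and at 0 in the other controls. Such values always give a ratio of 1, so the chance rate does not apply to Hes5. Dll1 was at 9.58 CPM in control 2, with the next control at 11.8 CPM, a ratio of 0.893.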

How the results depend on the processing

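The adrenal and smooth muscle covariates were chosen after seeing the data. In all 16 alternatives Hes1 was lower and called (log2 fold change -1.72 to -1.51), and Hes6, Hey1, Hey2 and Heyl were not called in any of them. With single libraries left out Hes6 ranged from -0.0199 (without Hes1 cKO 3) to 0.0862, and Hey1, Hey2 and Heyl were positive throughout. The 53 called genes became 102 without a low-count filter and 127 by DESeq2 (95 higher, 32 lower), each including all 53, and 25 to 47 when a library was left out (27 without Hes1 cKO 1, 25 without Hes1 cKO 2). With the longest transcript the control levels moved to 37.8 (Hes1), 54.1 (Hes6), 0.835 (Hey1) and 1.13 (Hey2) CPM per kb. Log2 fold changes near 0 that turned sign were Notch2, at -0.0128 with Xist, a mark of female tissue, as a covariate, -7e-04 with the smooth muscle covariate, and -0.0461 to 0.0913 with a library left out. With a library left out Rbpj spanned -0.1049 to 0.2745 and Nrarp -0.6173 to 0.1018. The cause was not tested. No paired analysis was possible because the columns carry no replicate number of the titled samples. Depth left Hes5, with 2 reads in all, untested.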
